A study of Mus musculus with 12 samples.

Results

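The genes described here are 49 that copy DNA and make its deoxynucleotide building blocks. They cover origin recognition and licensing, the MCM helicase and its activation, the clamp and its loader, polymerases and primase, single-strand binding, Okazaki fragment maturation, deoxynucleotide synthesis and control of entry into S phase. Each gene was read at 1 Affymetrix probe set, the brightest over the 6 arrays among those annotated to that gene alone. All 49 had such a probe set, and 46 of them passed the filter on dim signals (above log2 4 in at least 3 of 6 arrays), among 9025 genes measured in all. Orc1, Tyms and Tk1 did not pass.

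The study asked how loss of G9a bears on globin expression in mouse erythroleukemia (MEL) cells, a leukemic erythroid line in which dimethyl sulfoxide (DMSO) starts maturation. G9a is a histone H3 lysine 9 methyltransferase encoded by Ehmt2. There were 3 G9a knockdown arrays and 3 wild type arrays, numbered 1 to 3 in each group, and both groups had 2% DMSO for 4 days. Dox at 5 µg/ml induced the knockdown; the protocol text is the same for both groups, so whether wild type cells also had dox is not given, nor is the number of knockdown clones. No label calls the replicates separate cultures, so the p-values rest on variation among these arrays, part or all of which may be technical.

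In each cell cycle the origin recognition complex, with Cdc6 and Cdt1, loads the ring-shaped MCM helicase onto origins. Cdc45 and the GINS complex then turn the ring into an active helicase, and polymerases held on DNA by the PCNA clamp copy both strands. Most of these genes are transcribed toward S phase under E2F factors, and erythroid precursors keep dividing through early maturation and leave the cycle at its end.

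Ehmt2 was read first, as the check of the knockdown. Probe set 1460692_at read 6.67, 7.33 and 7.58 in knockdown arrays 1, 2 and 3, against 9.92, 10.03 and 10.23 in wild type arrays 1, 2 and 3, on the GCRMA log2 scale used throughout. Every knockdown array lay below every wild type array. The difference, knockdown minus wild type, was −2.87 (95% interval −3.24 to −2.49, limma adjusted p = 0.0316), and at 1426888_at it was −2.86 (adjusted p = 0.0278). These 2 were the only probe sets called among 17028 tested; both calls were lost without replicate 1 or without replicate 2, and 1 of them without replicate 3. The erythroid markers Gata1, Klf1, Tal1, Epor and Alas2 lay between 11.43 and 13.72 on every array, and Slc4a1, the band 3 anion exchanger, between 6.93 and 8.41. Of 26 listed markers of other cell types, 5 were measured (Itga2b, Pf4, Vim, Csf1r and Prtn3), and 0 of these passed the adjusted test. The myeloid protease Prtn3 had a difference of 1.19, the platelet integrin Itga2b −0.71 and vimentin (Vim) −0.54, and their part in the results below was not tested.

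No replication gene passed the adjusted test between knockdown and wild type. The count was 0 of 46 in either direction with limma and the replicate number as a block, beside 0.0111% of all measured genes called lower and 0% called higher. The lowest adjusted p among the 46 was 0.167. At an unadjusted p under 0.05, 13 replication genes (28.3%) were lower in knockdown, beside 7.63% of all measured genes, and 0 were higher, beside 6.56%. Without the block 2 were lower, beside 3.36%, and 0 higher, beside 2.63%. The lower count was 6 without replicate 1 and 6 without replicate 2, with no share of all measured genes taken at these settings.

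In all, 32 of the 46 had a difference below 0 and 14 above. The median difference was −0.16, and over all measured genes it was −0.0063. The median within the pair of arrays numbered 1 was −0.26, within pair 2 it was −0.10 and within pair 3 it was −0.078. Knockdown was lower in all 3 same-numbered pairs for 22 genes (47.8%), beside 21.7% of all measured genes, and higher in all 3 for 4, beside 18.7%. The groups did not overlap for 2 genes, Rrm2 and Ccne2, both lower in knockdown, beside 7.34% of all measured genes, and for 0 with knockdown higher, beside 5.5%. Most differences were small: 31 of 46 lay within 0.25 of 0, 5 lay below −0.5 and 0 above 0.5. With 1 replicate number left out, the difference moved by over 1.5 times or turned sign for 29 genes, of which 12 turned sign. Among the 13 with an unadjusted p under 0.05, 1 moved by that much, Cdc6. All 13 were lower in all 3 pairs, so their sign could not turn. A low p also favours pairs with like differences, so the 1 is not a check either. A smaller share of replicating cells and less RNA in each cell cannot be told apart in such bulk samples.

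**Figure D1:**
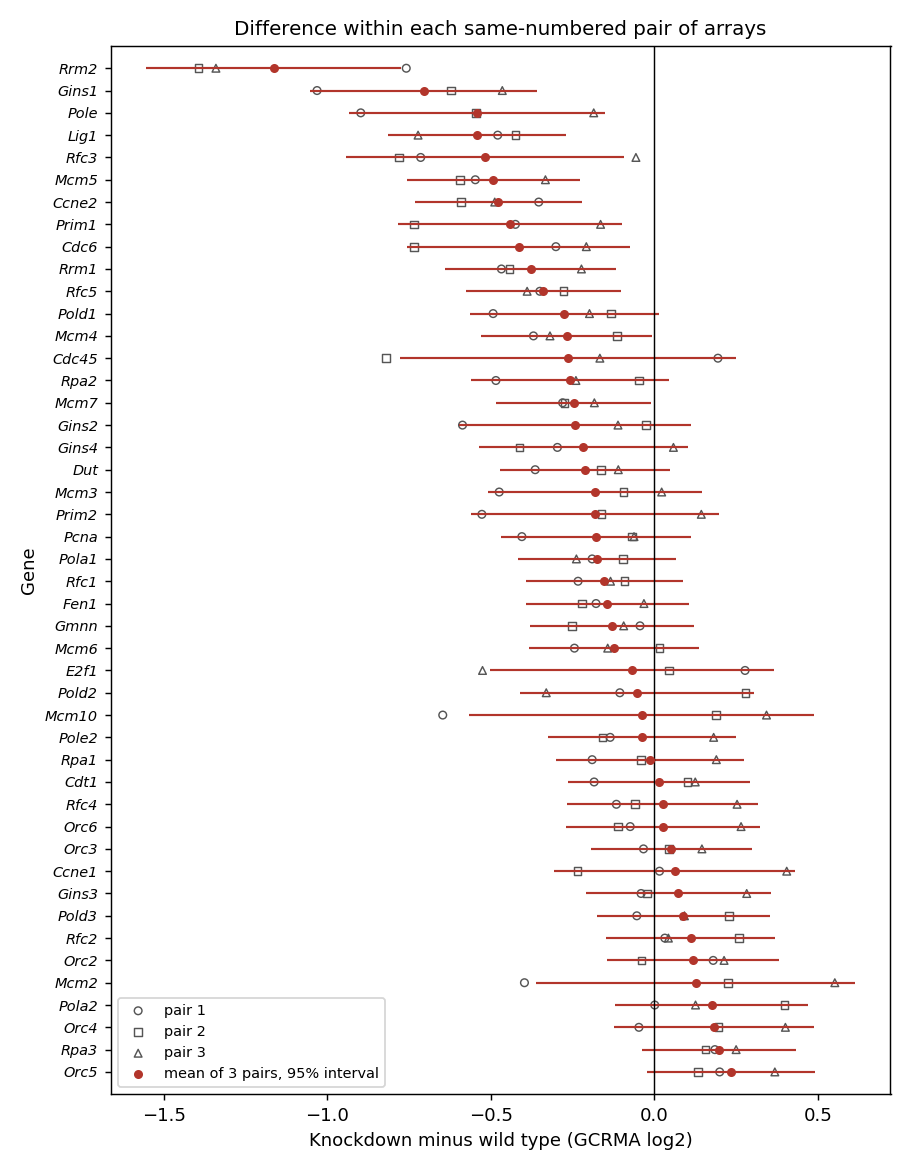
Knockdown minus wild type (GCRMA log2, horizontal axis) for the 46 measured replication genes, in order of difference. Open marks are same-numbered pairs of arrays, and filled points with bars are the mean of 3 pairs with limma's 95% interval. Rrm2 lies furthest to the left, with a mean of −1.16, and Orc5 furthest to the right, with 0.23.

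Deoxynucleotide synthesis held the gene with the lowest p. Rrm2, the small subunit of ribonucleotide reductase and the one whose level follows the cell cycle, read 8.90, 7.54 and 7.83 in knockdown arrays, against 9.66, 8.93 and 9.17 in wild type arrays. The groups did not overlap, although knockdown array 1 lay just below wild type array 2. The difference was −1.16 (SE 0.155, 95% interval −1.55 to −0.77), 2.24-fold lower, with adjusted p = 0.167. The suffix _x_at of its probe set 1434437_x_at marks probes that may match other transcripts. The other Rrm2 probe sets, 1448226_at and 1416120_at, had differences of −1.33 and −1.19. Rrm2 also differed by replicate number, with array 1 the highest of each group. Replicate 1 minus 2 was 1.05 and replicate 1 minus 3 was 0.78, and neither was called.

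Rrm1, the large subunit of the same enzyme, read 9.58, 8.91 and 8.91 in knockdown arrays, against 10.05, 9.35 and 9.14 in wild type arrays. Knockdown was lower within each pair, but knockdown array 1 stood above wild type arrays 2 and 3, so the groups overlapped. The difference was −0.38 (SE 0.104, adjusted p = 0.271). Dut, the dUTPase that keeps uracil out of DNA, had −0.21 and was also lower in all 3 pairs.

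Tk1 and Tyms make thymidylate, by salvage and by methylation of dUMP. Tk1 read 3.65, 2.33 and 2.43 in knockdown arrays, against 4.84, 2.88 and 2.90 in wild type arrays. It was highest on the arrays numbered 1 of each group, but only wild type array 1 stood above the filter, so it was not tested. Tyms lay between 3.42 and 3.48 in knockdown and between 3.24 and 3.72 in wild type, and Orc1, the largest subunit of the origin recognition complex, between 3.54 and 3.86 in knockdown and between 3.60 and 3.68 in wild type. No difference is read from signals this dim.

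Lig1, the ligase that seals Okazaki fragments, read 8.66, 7.60 and 7.18 in knockdown arrays, against 9.14, 8.03 and 7.90 in wild type arrays. It was lower in knockdown within each pair, yet knockdown array 1 stood above wild type arrays 2 and 3. The difference was −0.54 (SE 0.108, 95% interval −0.81 to −0.27, adjusted p = 0.202). Fen1, the flap nuclease that trims the fragments before ligation, had −0.14.

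All 6 MCM subunits were measured, and 5 had differences below 0, with a median of −0.21. Mcm5 read 10.82, 9.68 and 9.98 in knockdown arrays, against 11.37, 10.28 and 10.32 in wild type arrays. Array 1 was the highest of each group, and the difference was −0.49 (SE 0.104, adjusted p = 0.209). Mcm7 read 10.77, 9.90 and 10.04 in knockdown arrays, against 11.05, 10.18 and 10.22 in wild type arrays, a difference of −0.25. Mcm4 had −0.27, Mcm3 −0.18 and Mcm6 −0.12. Mcm2 stood on the other side, at 0.13, lower in knockdown within pair 1 and higher within pairs 2 and 3.

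Of the 6 genes of helicase activation, 5 had differences below 0, with a median of −0.23. Gins1, a GINS subunit, read 4.53, 3.63 and 3.84 in knockdown arrays, against 5.56, 4.25 and 4.31 in wild type arrays. Each knockdown array lay below its own pair mate, and 2 of the knockdown arrays lay under the filter level. The difference was −0.71 (SE 0.138, 95% interval −1.05 to −0.36, adjusted p = 0.197). Gins2 had −0.24 (−0.07 without replicate 1), Gins4 −0.22 (−0.12 without replicate 2) and Cdc45 −0.26 (0.01 without replicate 2). Mcm10, which helps to start the helicase, had −0.04 (0.27 without replicate 1). The value of Gins3 depended on the probe set, at 0.07 for the brighter and −0.59 for the other.

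Among licensing genes 2 of 8 measured had differences below 0, with a median of 0.04. Cdc6, the loader that joins the origin recognition complex to the MCM ring, read 8.90, 7.95 and 8.24 in knockdown arrays, against 9.20, 8.69 and 8.44 in wild type arrays. All 3 pairs were lower in knockdown, and the groups overlapped. The difference was −0.41 (SE 0.135, adjusted p = 0.314), and −0.25 without replicate 2. Geminin (Gmnn), which blocks Cdt1 after origins fire, had −0.13, and Cdt1 itself had 0.01. The origin recognition subunits Orc2 to Orc6 lay between 0.03 (Orc6) and 0.23 (Orc5); Orc2, Orc3 and Orc4 each had another tested probe set with the opposite sign or under 50% of the value given.

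Polymerase and primase genes numbered 9, of which 7 had differences below 0, with a median of −0.17. Pole, the catalytic subunit of the leading-strand polymerase, read 7.01, 6.54 and 6.36 in knockdown arrays, against 7.90, 7.08 and 6.55 in wild type arrays. The pairs numbered 1 and 2 were further apart than the pair numbered 3, and the difference was −0.54 (SE 0.156, adjusted p = 0.279). Prim1, the catalytic primase subunit, read 9.08, 7.74 and 8.43 in knockdown arrays, against 9.50, 8.48 and 8.59 in wild type arrays, a difference of −0.44. The subunits Pold1, Prim2, Pola1, Pold2 and Pole2 lay between −0.27 and −0.04, and Pold3 and Pola2 had 0.09 and 0.18.

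At the clamp, Rfc5 and Rfc3, subunits of the loader that opens PCNA, had the lowest differences. Rfc5 read 9.24, 8.28 and 8.32 in knockdown arrays, against 9.59, 8.56 and 8.71 in wild type arrays, a difference of −0.34. Rfc3 read 7.23, 6.36 and 7.15 in knockdown arrays, against 7.94, 7.14 and 7.20 in wild type arrays, a difference of −0.52. In Rfc3 pair 3 was nearly level while pairs 1 and 2 were not. The clamp Pcna had −0.18, Rfc1 −0.15, Rfc4 0.03 and Rfc2 0.11. The single-strand binding subunits Rpa1, Rpa2 and Rpa3 had −0.01, −0.26 and 0.20.

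Among regulators of S phase entry, Ccne2, a cyclin that activates Cdk2, read 7.11, 6.60 and 7.12 in knockdown arrays, against 7.46, 7.19 and 7.61 in wild type arrays. The groups did not overlap, and arrays numbered 1 and 3 were close to each other within each group. The difference was −0.48 (SE 0.101, adjusted p = 0.209). Its relative Ccne1 had 0.06. The transcription factor E2f1 had −0.07 at its brighter probe set and 0.30 at another. In the MAS5 summary of the same hybridizations, as log2(value + 1), the Ccne2 groups overlapped. Knockdown array 1 read 8.586 there, above wild type arrays 1 (8.584) and 2 (8.459), and the Ccne2 difference was −0.26.

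**Figure D2:**
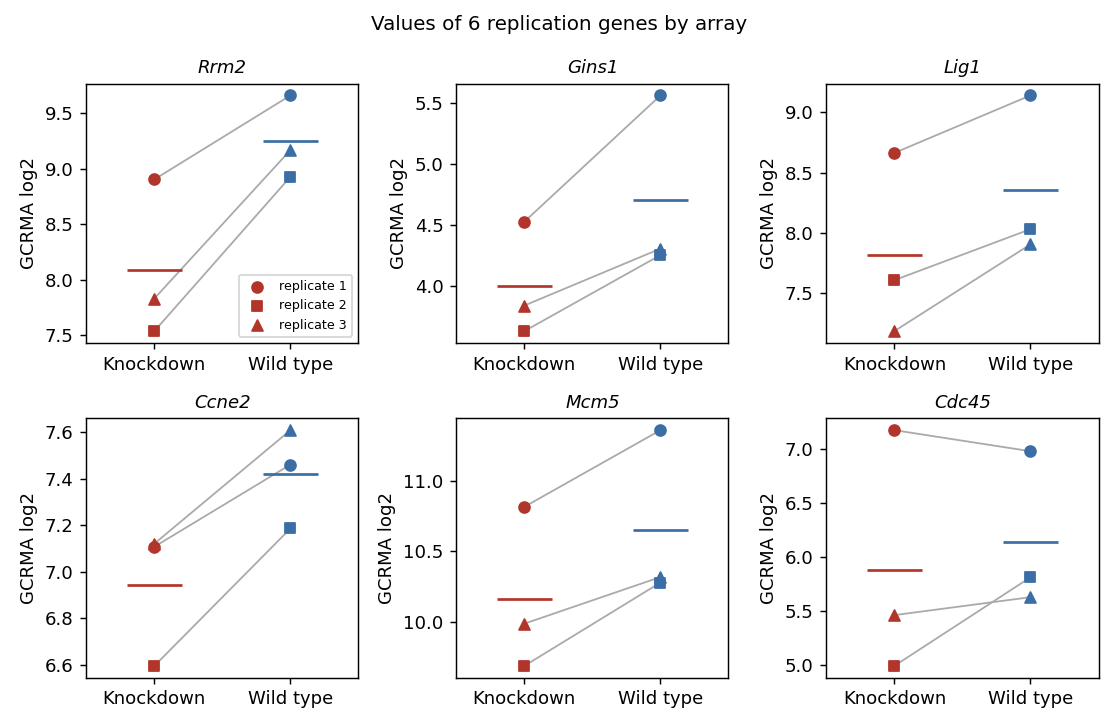
GCRMA log2 levels (vertical axes, each cut to the range of its gene) of Rrm2, Gins1, Lig1, Ccne2, Mcm5 and Cdc45 in the 3 knockdown arrays (left) and 3 wild type arrays (right), with a mark shape for each replicate number, grey lines joining same-numbered arrays and bars at group means. Rrm2 and Ccne2 have groups that do not overlap. In every gene shown but Ccne2, Rrm2 included, array 1 is the highest of each group.

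Gins1 and Ccne2 had no start-site window. Among replication genes with a window, the 4 with the lowest p for knockdown minus wild type were Rrm2, Lig1, Mcm5 and Rrm1. A window of each of these genes is shown. Each window holds 300 bases and ends 50 bases after a RefSeq start on the GRCm38.p6 assembly, plus strand of the chromosome and of the gene, 5′ to 3′. Capitals mark matches on either strand to the E2F words TTTGGCGC, TTTCCCGC, TTTGCCGC or TTTCGCGC and to the NF-Y word CCAAT. Rrm2 lies at chr12:24708004-24708303, Rrm1 at chr7:102441445-102441744, Lig1 at chr7:13278576-13278875 (the one of its 3 windows with an E2F match) and Mcm5 at chr8:75109259-75109558.
Rrm2: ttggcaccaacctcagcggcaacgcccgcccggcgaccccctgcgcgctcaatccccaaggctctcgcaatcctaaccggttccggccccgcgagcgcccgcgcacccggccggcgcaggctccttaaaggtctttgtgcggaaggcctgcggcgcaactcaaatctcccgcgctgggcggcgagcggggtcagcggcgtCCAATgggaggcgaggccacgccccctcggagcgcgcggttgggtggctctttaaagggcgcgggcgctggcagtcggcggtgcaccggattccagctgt
Rrm1: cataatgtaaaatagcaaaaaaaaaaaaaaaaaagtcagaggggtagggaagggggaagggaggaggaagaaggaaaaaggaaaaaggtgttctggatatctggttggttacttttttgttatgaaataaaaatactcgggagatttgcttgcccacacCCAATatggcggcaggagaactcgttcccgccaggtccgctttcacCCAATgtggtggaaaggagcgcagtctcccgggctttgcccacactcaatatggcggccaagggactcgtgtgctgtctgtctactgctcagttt
Lig1: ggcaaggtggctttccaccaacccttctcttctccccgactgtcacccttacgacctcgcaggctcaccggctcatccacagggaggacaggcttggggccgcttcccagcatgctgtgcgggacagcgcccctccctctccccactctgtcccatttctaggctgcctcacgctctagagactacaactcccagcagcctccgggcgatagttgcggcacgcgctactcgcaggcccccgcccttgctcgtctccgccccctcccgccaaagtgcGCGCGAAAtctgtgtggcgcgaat
Mcm5: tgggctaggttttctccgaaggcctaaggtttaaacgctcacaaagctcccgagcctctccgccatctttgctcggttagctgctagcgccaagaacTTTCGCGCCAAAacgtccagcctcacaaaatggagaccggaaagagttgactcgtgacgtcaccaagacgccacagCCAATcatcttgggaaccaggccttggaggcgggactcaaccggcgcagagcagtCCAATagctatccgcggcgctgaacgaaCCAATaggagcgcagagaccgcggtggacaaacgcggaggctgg

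In the Mcm5 window TTTCGCGC began at position −153 from the start, overlapped on the opposite strand by TTTGGCGC, and 3 CCAAT words followed. The Lig1 window held TTTCGCGC on the opposite strand, from position 27 after the start. Rrm2 had 1 CCAAT and Rrm1 had 2, with none of the 4 E2F words in those windows. Of the 49 genes, 40 matched the promoter table, with 48 windows. An E2F word was found in 15 of these windows (31.2%), in 4.32% of 9579 windows of measured genes and in 2.26% of all 32851 windows. CCAAT was found in 25 of 48 (52.1%), in 38.2% of windows of measured genes and in 37.4% of all windows. The windows were not matched for base composition, and a match is not evidence of binding.

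More replication genes were called between replicate numbers than between knockdown and wild type. Both arrays numbered 1 lay above the other 4 arrays for 33 of 46 genes (71.7%), beside 20.7% of all measured genes, and below them for 0, beside 12.6%. The F test over the 3 numbers called 4 genes (8.7%), Lig1 (limma adjusted p = 0.0336), Rfc5 (0.0378), Mcm5 (0.0388) and Mcm7 (0.0458), beside 1.97% of all measured genes. The calls were 0 in MAS5 values and 0 with no filter on dim probe sets.

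**Figure D3:**
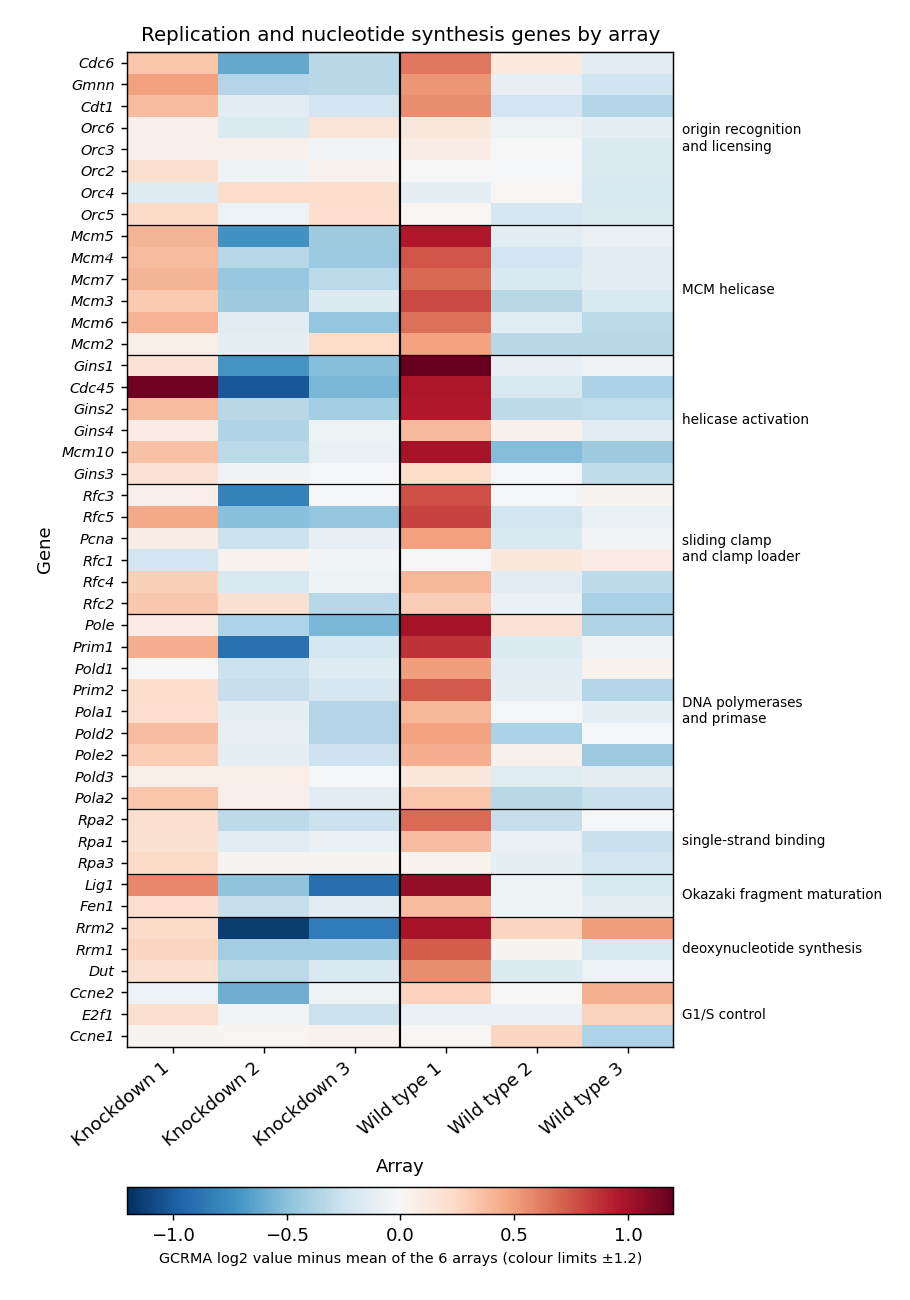
Each cell is a gene's GCRMA log2 level minus its mean over the 6 arrays (colour, limits ±1.2), for the 46 measured replication genes grouped by role (down the page), with knockdown arrays 1 to 3 left of wild type arrays 1 to 3. In 33 of the 46 genes both columns numbered 1 are higher than the other 4.

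The median of replicate 1 minus replicate 2 was 0.57 and of replicate 1 minus replicate 3 it was 0.55, with 0.052 and 0.055 over all measured genes. Replicate 2 minus replicate 3 had a median of −0.0087. In replicate 1 minus 2, 11 genes were called higher, beside 1.82% of all measured genes, and 0 lower, beside 1.48%. These were Lig1, Mcm5, Rfc5, Mcm7, Prim1, Mcm4, Cdc45, Gins1, Gmnn, Mcm3 and Gins2. In replicate 1 minus 3, 9 were called higher, beside 1.88%, and 0 lower, beside 1.06%: Lig1, Rfc5, Mcm5, Mcm6, Mcm7, Mcm4, Gmnn, Rrm1 and Cdc45. Both contrasts use the same replicate 1 arrays, and in MAS5 values or with no filter each had 0 calls. Without replicate 2, 2 genes were called in replicate 1 minus 3, Lig1 and Cdc45. In replicate 2 minus 3, 0 were called, beside 0%, and at an unadjusted p under 0.05 there was 1 in each direction, beside 6.45% higher and 4.66% lower.

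Cdc45, the helicase cofactor, had the widest gap. It read 7.17, 4.99 and 5.46 in knockdown arrays, against 6.98, 5.81 and 5.63 in wild type arrays, so the arrays numbered 1 were the top 2 of the 6. Replicate 1 minus 2 was 1.67 (SE 0.249, limma adjusted p = 0.0372), 3.19-fold, and replicate 1 minus 3 was 1.53 (adjusted p = 0.047). Of the 6 helicase activation genes, 6 had both arrays numbered 1 on top. Gins1, Mcm10 and Gins2 had 1.10, 1.10 and 0.99 in replicate 1 minus 2, with Mcm10 not called. In MAS5 values replicate 1 minus 2 was smaller for these genes, at 0.96 for Cdc45, 0.23 for Gins1, 0.51 for Mcm10 and 0.44 for Gins2.

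Gins2 read 5.84, 5.13 and 5.06 in knockdown arrays, against 6.43, 5.16 and 5.17 in wild type arrays. Its arrays numbered 2 and 3 were nearly level in both groups at this probe set, while at the other tested one, 1452881_at, replicate 2 minus 3 was 0.76. Geminin read 9.47, 8.63 and 8.65 in knockdown arrays, against 9.51, 8.88 and 8.74 in wild type arrays. For geminin number 1 stood apart, by 0.74 over number 2 and 0.80 over number 3.

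For Lig1, with its levels given above, replicate 1 minus 2 was 1.09 (2.12-fold, adjusted p = 0.0283) and replicate 1 minus 3 was 1.36 (2.57-fold, adjusted p = 0.0205). Mcm5 had 1.11 and 0.94, Rfc5 1.00 and 0.90, and Mcm7 0.87 and 0.78 in the same contrasts. Within the MCM ring, 5 of 6 subunits had both arrays numbered 1 above the other 4. Mcm6 read 11.47, 10.92 and 10.59 in knockdown arrays, against 11.71, 10.91 and 10.73 in wild type arrays, and Mcm4 read 9.97, 9.25 and 9.14 in knockdown arrays, against 10.34, 9.36 and 9.46 in wild type arrays. Mcm6 was called in replicate 1 minus 3 (0.93), and Mcm4 in both contrasts (0.85 in each). Mcm2 had 0.50 and 0.34 and was the subunit without that order.

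In 13 of the 46 genes the arrays numbered 1 were not both above the other 4, and in 4 of these replicate 1 minus 2 or replicate 1 minus 3 was below 0 (Orc4, Rfc1, Ccne1 and Ccne2). Orc4 had −0.24 in replicate 1 minus 2 and −0.14 in replicate 1 minus 3, and Rfc1, the large clamp loader subunit, had −0.20 and −0.15. Of Ccne1, Ccne2 and E2f1, 0 had both arrays numbered 1 on top, beside 20.7% of all measured genes. Ccne2 was the only replication gene with an unadjusted p under 0.05 for replicate 2 minus 3 on the lower side, at −0.47, and Rfc2 had 0.42 on the higher side.

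**Figure D4:**
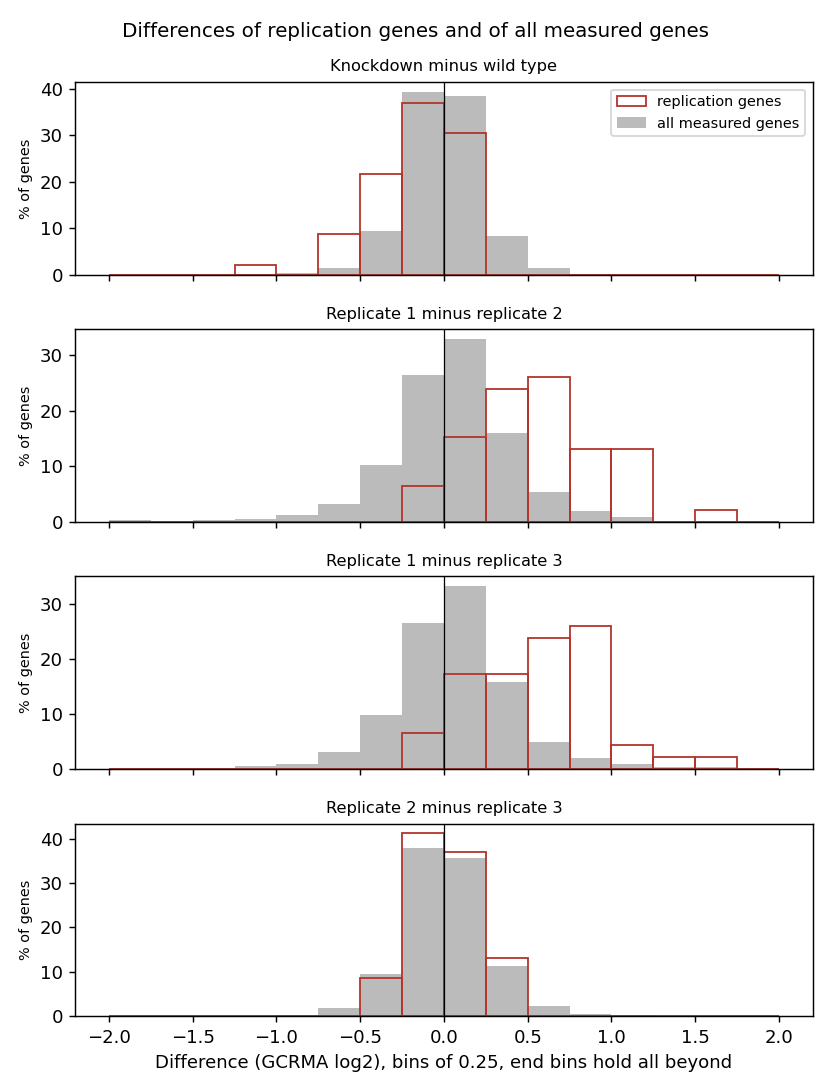
Shares of the 46 replication genes and of all 9025 measured genes (vertical axes, percent) by size of difference (horizontal axes, GCRMA log2, bins of 0.25, end bins holding all values beyond), for knockdown minus wild type and the 3 contrasts between replicate numbers. The replication genes lie mostly to the right of 0 in replicate 1 minus 2 and replicate 1 minus 3, with medians of 0.57 and 0.55, against −0.16 in knockdown minus wild type and −0.0087 in replicate 2 minus 3.

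Mitotic genes were high on the same arrays. Of 19 listed and measured, 18 had both arrays numbered 1 above the other 4 and 11 were called by the F test, with medians of 0.97 in replicate 1 minus 2 and 1.37 in replicate 1 minus 3. Cenpf, a kinetochore protein, had the lowest F p-value of the list (adjusted p = 0.026), followed by Nusap1, Cdk1 and Kif11. Their median in replicate 2 minus 3 was 0.43, and 10 of 19 were higher there at an unadjusted p under 0.05. Between knockdown and wild type the median of the 19 was 0.019, with 7 below 0 and 12 above. At an unadjusted p under 0.05, 1 was lower in knockdown and 3 were higher, beside 7.63% and 6.56% of all measured genes. The lower values of the replication genes in knockdown were thus not seen in the mitotic list. Of 24 erythroid maturation genes, 1 had both arrays numbered 1 above the rest, beside 20.7% of all measured genes. The F test called 2 of the 24, beside 1.97%, and 10 had an unadjusted F p under 0.05, beside 24.4%. In replicate 1 minus 2, 1 was called higher and 2 lower, beside 1.82% and 1.48%. In replicate 1 minus 3, 3 of the 24 were called higher and 0 lower, beside 1.88% and 1.06%. At an unadjusted p under 0.05, 7 were higher and 0 lower in replicate 2 minus 3, beside 6.45% and 4.66%. Medians of the list were 0.012 in replicate 1 minus 2 and 0.17 in replicate 1 minus 3. What a replicate number stands for is not given in the labels, and the part of the mitotic genes' shift in that of the replication genes was not tested.

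**Figure D5:**
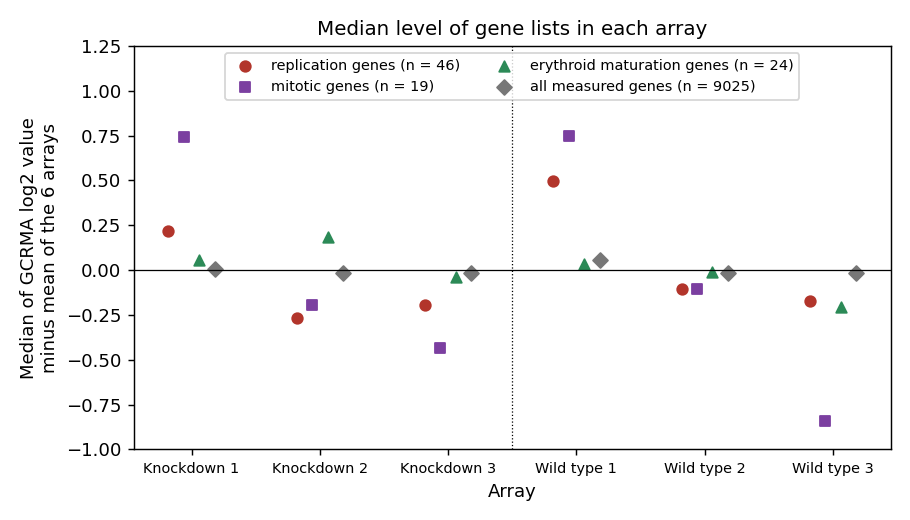
Median over each list of GCRMA log2 level minus the gene's mean over 6 arrays (vertical axis), by array (knockdown left, wild type right). The replication and mitotic genes are highest on the arrays numbered 1 of both groups, at 0.22 and 0.74 in knockdown and at 0.49 and 0.75 in wild type.

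Other genes of the same pathways were read from further lists, and 0 of them passed the adjusted test between knockdown and wild type. At an unadjusted p under 0.05, 7.63% of all measured genes were lower in knockdown and 6.56% higher. Of 21 origin and checkpoint genes, 3 were lower in knockdown at an unadjusted p under 0.05 and 0 higher, with a median difference of −0.03. These were Clspn, the claspin adaptor of the replication checkpoint (−0.43), Timeless of the fork protection complex (−0.53) and the MCM relative Mcm9 (−0.30). Of 23 fork and chromatin assembly genes, 6 were lower and 1 higher, with a median of −0.06.

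Uhrf1, which brings DNA methylation to newly copied DNA, read 8.36, 7.07 and 6.96 in knockdown arrays, against 9.26, 7.85 and 7.89 in wild type arrays. Each knockdown array lay below its pair mate, and array 1 was the highest of each group. The difference was −0.87 (limma adjusted p = 0.149), and the F test over replicate numbers called it (adjusted p = 0.0304). Hells, a chromatin remodeller needed for DNA methylation, had −0.72, the clamp loader subunit Dscc1 −1.17 and the nuclease Dna2 −0.46. Top2a, a topoisomerase, and Asf1b, a histone chaperone, were called by the F test too, with 0.17 and −0.13 between knockdown and wild type.

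The counts that follow also stand beside 7.63% of all measured genes lower and 6.56% higher at an unadjusted p under 0.05. Of 16 deoxynucleotide supply genes, 3 were lower in knockdown at an unadjusted p under 0.05 and 0 higher, with a median of −0.11. They were Shmt2, the mitochondrial serine hydroxymethyltransferase (−0.42), Tk2, the mitochondrial thymidine kinase (−0.38), and Nme2, a nucleoside diphosphate kinase (−0.27). Of 15 measured genes of purine and pyrimidine synthesis, 2 were lower, the adenylosuccinate synthetase Adss (−0.47) and the CTP synthetase Ctps (−0.24). Of 27 E2F, RB and cyclin-dependent kinase genes, 0 were lower and 1 higher, Myc (0.36), and the F test called Ccna2 and E2f7. Erythroid maturation genes lay on the other side, with 0 lower and 9 higher of 24 and a median of 0.18. The lowest adjusted p among them was 0.06, for Car1, carbonic anhydrase 1 (1.94).

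The MAS5 summary of the same 6 hybridizations served as a check, with differences on the log2(value + 1) scale. It gave 0 calls between knockdown and wild type and 0 in the F test among the 46 genes, beside 0% of all measured genes in each. At an unadjusted p under 0.05, 6 replication genes were lower in knockdown, beside 4.95% of all measured genes, and 0 higher, beside 5.12%. The sign matched that of GCRMA in 42 of 46 genes, with a median of −0.11. Fen1, Gins3, Orc4 and Pole2 turned sign at the same probe set, to 0.21, −0.18, −0.01 and 0.04. Rrm2 had −0.96, Lig1 −0.74, Pole −0.74, Gins1 −0.49, Mcm5 −0.42 and Rfc5 −0.28 in MAS5. Replicate 1 minus 2 had a median of 0.42 and replicate 1 minus 3 of 0.43, with 20 genes at an unadjusted F p under 0.05, beside 15.1% of all measured genes. Signs matched those of GCRMA in 46 of 46 genes in replicate 1 minus 2 and in 39 in replicate 1 minus 3.

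Of the 46 genes, 27 had more than 1 tested probe set. In 12 of these another probe set had the opposite sign or under 50% of the difference given: Ccne1, E2f1, Gins2, Gins3, Mcm2, Mcm3, Orc2, Orc3, Orc4, Pold1, Rfc2 and Rfc4. None of the 13 genes with an unadjusted p under 0.05 is among them. However, Gins1, Lig1, Ccne2, Rfc5, Pole and Cdc6 had only 1 tested probe set, so they could not be.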

How the data were processed

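RNA of 6 hybridizations was deposited in 2 summaries, named MAS5 and GCRMA in the submitters' processing notes. The deposited MAS5 columns hold linear intensity, whose 2% trimmed mean was 500 on each array; the deposited GCRMA columns hold log2 values and were the values tested. Versions and settings of both summaries were not given in the sources used here. The number of arrays limits the precision.

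The 17028 of 45101 probe sets that exceeded log2 4 on 3 or more arrays, without the 64 controls, were tested with limma 3.58.1 in R 4.3.3 (lmFit, eBayes; group plus replicate number; Benjamini-Hochberg over all probe sets tested; threshold 0.05). The F test and contrasts between replicate numbers came from the same fit. A gene was read at its brightest probe set annotated to 1 gene by the platform annotation. MAS5 values were tested as log2(value + 1). The pipeline was tested on simulated data.

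The block was set beforehand, from the replicate numbers in the labels. Deviations from group means correlated at 0.72, 0.57 and 0.37 between same-numbered arrays and at −0.59 to 0.17 between others. Deviations within a group cancel out, so the correlations between unlike numbers are not independent of the rest. The labels leave the meaning of a number unstated, so only these values speak to whether same-numbered arrays belong together. Values in every array are given for the 12 genes with the lowest p in each test. Of each further list, up to 4 genes with the lowest p in each test could be named, with array values for Uhrf1 only. The members, lists and rules were chosen with earlier results of these data known. Start-site windows came from a RefSeq table of GRCm38.p6. Alternatives covered the block, summary, filter, array weights, centring, probe sets and each replicate number.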

Additional observations from a re-analysis of the deposited data

How the results depend on the processing

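The calls of replication genes between knockdown and wild type were 0 under each of the 11 alternatives, and their median difference kept its sign, at −0.21 to −0.090 with a replicate number left out. Over all probe sets tested, the 2 calls became 1 with no replicate block, 0 in MAS5 with either pseudocount (1 or 16), 0 with no filter, 4 with the filter at log2 5, 4 with array weights, and 0 to 1 with a number left out. The 13 genes lower at an unadjusted p under 0.05 became 2 with no replicate block, 6 in MAS5 with either pseudocount, 6 without replicate 1, 6 without replicate 2 and 11 without replicate 3. The lower count was 18 with no filter and 14 with arrays centred or with probe sets averaged. The filter at log2 5 and array weights each gave 12. With no filter, 2 were higher. Knockdown was lower in all 3 pairs for 14 genes in MAS5, against 22.

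Between replicate numbers, the F test's 4 calls became 0 in MAS5 with either pseudocount, 0 with no filter, 10 with the filter at log2 5, 9 with arrays centred and 10 with probe sets averaged. Replicate 1 minus 2 had 11 calls, 0 in MAS5 with either pseudocount, 0 with no filter, 17 with array weights and 16 without replicate 3. Its median of 0.57 was 0.42 in MAS5 with either pseudocount. Replicate 1 minus 3 had 9 calls, 0 in MAS5 with either pseudocount, 0 with no filter, 3 with array weights, 16 with probe sets averaged and 2 without replicate 2 (Lig1 and Cdc45). Most counts at these alternatives have no share of all measured genes beside them. They do not show whether replication genes moved more than others. The causes were not tested. With no filter more probe sets enter the adjustment, and with a number left out fewer arrays do. Signals near log2 4, as in Gins1, limit what can be read from a difference.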
